A study of Homo sapiens with 12 samples.

Results

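hsa_circ_0000118, hsa_circ_0001550 and hsa_circ_0001439 are 3 circular RNAs (circRNAs) that took large shares of the counts precipitated by control IgG from drug-sensitive MDA-MB-231 cells. They were chosen by name from the 6384 circRNA rows of the count table, with their level in those IgG libraries and the sign of RIP (RNA immunoprecipitation) over IgG known. Those values are therefore given as descriptions, without a test. In the sensitive-cell IgG libraries the 3 circRNAs ranked 2, 3 and 6 by mean level among 475 detected and together held 249 of 7794 circRNA counts, or 3.19%. Their part of the counts was 0.413% in the sensitive-cell RIP, 0.667% in the resistant-cell IgG and 0.445% in the resistant-cell RIP. The choice did not follow a threshold, and the circRNAs at ranks 4 and 5 are not among the 3.

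A circRNA is a closed loop made when a splice donor is joined to an upstream acceptor, and without free ends it resists the exonucleases that degrade linear RNA. IGF2BP2 is an RNA-binding protein that reads N6-methyladenosine marks and acts on the stability and translation of bound messages, MYC among them. In a RIP experiment an antibody against the protein pulls down the RNAs it holds, and normal IgG in its place shows what sticks to the antibody and beads without regard to the protein. An RNA that is abundant in the IgG precipitate therefore needs its RIP level read against that background. The files do not pair these identifiers with host genes or sequences, so none are named here, and the functions of the 3 circRNAs are not described.

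MDA-MB-231 is an established triple-negative breast cancer line. The Sens cells are labelled wild type and untreated. The Res cells are labelled as having established BETi (bromodomain and extra-terminal inhibitor) resistance and were kept in BETi without a break until they were harvested, so an effect of resistance and one of the drug being present cannot be told apart. The BETi compound is not named in the labels. Lysates of each line were incubated with 5 µg of anti-IGF2BP2 monoclonal antibody (RIP) or 5 µg of normal rabbit IgG, with 3 libraries in each of the 4 groups (Sens IgG, Sens RIP, Res IgG, Res RIP). Nothing in the labels says that the replicates were separate cultures, so errors and p-values measure the spread between these libraries, which may be technical. No marker gene of the line was analysed here.

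Libraries held few circRNA counts. The range was 1960 to 2989 for Sens IgG and 4448 to 5561 for Sens RIP, and for Res cells it was 3860 to 6036 with IgG and 5179 to 8662 with the RIP antibody. The smallest library thus gave 510.2 RPM (counts per 1000000 circRNA counts) for a single count. The ERCC spike-in, a set of synthetic transcripts mixed into equal amounts of precipitated RNA, supplied a second scale. For every 1000 ERCC counts, Sens IgG had 22.0 ± 0.267 circRNA counts and Sens RIP 7582 ± 724, while Res IgG had 68.2 ± 1.73 and Res RIP 10688 ± 2204 (mean ± SD, n = 3 libraries, as for every ± below). Of the circRNAs seen in any Sens IgG library, 77.7% were seen in all 3, and in Res IgG 72.0%. In the RIP this share was 13.3% in Sens and 16.3% in Res. Whether the replicates of a group draw on 1 pool of molecules was not tested. The IgG SDs, n = 3 and the statements on overlap below therefore describe these libraries and may not hold for separate precipitations. Each library was counted as a sample as labelled. Within a group, the counts of every pair of libraries differed by more than Poisson noise (chi-square test, p = 0.00012 for the pair with the highest p), a test that takes reads as independent and so does not show that the samples are separate.

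In Sens IgG, hsa_circ_0000118 had 40, 26 and 33 counts in libraries 1, 2 and 3. These are 13382, 13265 and 11599 RPM, a mean of 12749 ± 997. The 3 libraries lay close together, nearer than the SD of 2240 that counting error alone would give for a single library. hsa_circ_0001550 had 39, 18 and 45 counts, or 13048, 9184 and 15817 RPM, with a mean of 12683 ± 3332. Library 2 was the low one, and the counting SD was 2274. hsa_circ_0001439 had 22, 16 and 10 counts, or 7360, 8163 and 3515 RPM, with a mean of 6346 ± 2485 against a counting SD of 1560. Here library 3 was the low one. Only hsa_circ_0001573 ranked above all 3, with 152990 ± 11504 RPM. hsa_circ_0001380, at rank 4, had 12046 RPM and hsa_circ_0000745, at rank 5, had 9606 RPM, both named after their values were seen.

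**Figure D1:**
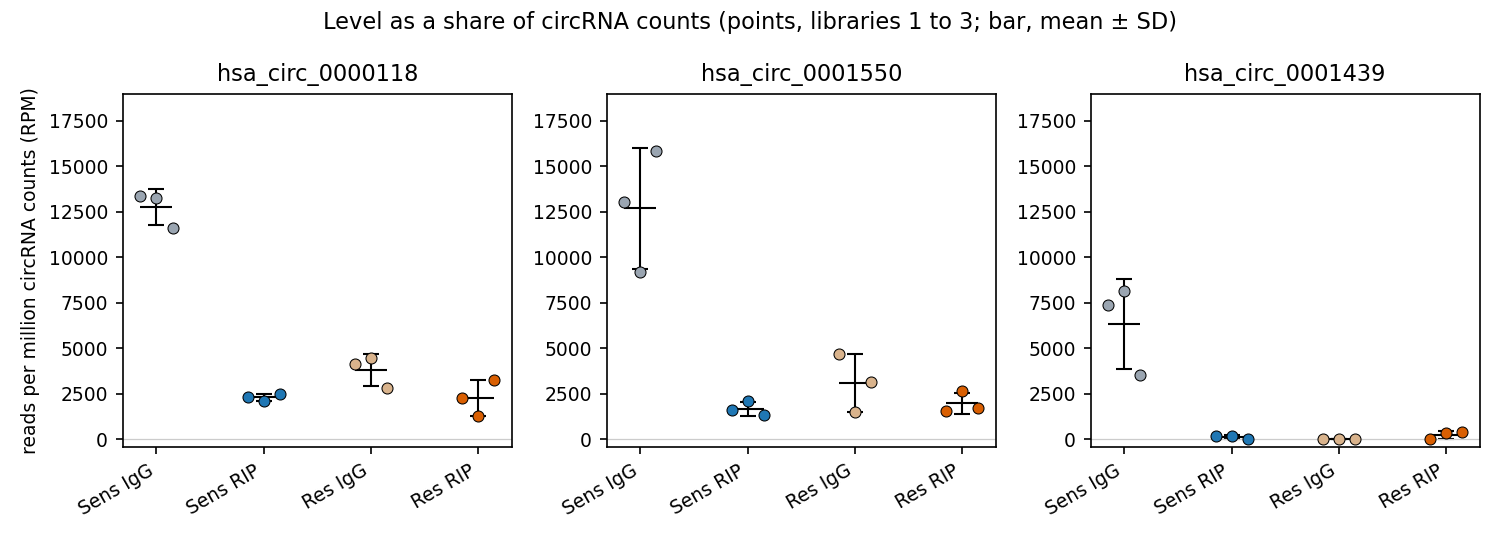
Levels of the 3 circRNAs in RPM (linear axis) in each of the 4 groups. Points are libraries and bars are mean ± SD over 3 libraries. All 9 Sens IgG points lie above the Sens RIP and Res IgG points of the same circRNA.

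With the IGF2BP2 antibody in the same cells, hsa_circ_0000118 had 13, 10 and 11 counts, or 2338, 2096 and 2473 RPM, with a mean of 2302 ± 191. Every Sens RIP library lay below every Sens IgG library on this scale, and the RIP mean was 5.54-fold lower. hsa_circ_0001550 had 9, 10 and 6 counts, or 1618, 2096 and 1349 RPM, with a mean of 1688 ± 378, 7.51-fold below IgG. hsa_circ_0001439 had 1, 1 and 0 counts in the Sens RIP against 48 in IgG. Its IgG to RIP ratio of summed counts per circRNA total was 45.5, with an exact 95% interval of 11.9 to 387. Such intervals hold counting error alone and leave out the spread between libraries. Without molecular identifiers several reads can stem from 1 molecule, so the intervals may be too narrow even for counting error. For all 3 circRNAs the RIP group lay wholly below the IgG group, as it did for 20.0% of the 1307 circRNAs tested (a minimum of 2 counts in 3 or more libraries, which all 3 passed). The choice of the 3 used this contrast, and nothing is read from the count.

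Although lower in share than in IgG, hsa_circ_0000118 and hsa_circ_0001550 were among the more abundant circRNAs of the precipitate. In the Sens RIP they ranked 44 and 64 by mean RPM among 3487 circRNAs detected. In the Res RIP they ranked 47 and 57 among 4274. hsa_circ_0001439 ranked 1380 and 759, at levels where 1 or a few counts set the rank. That circRNA would not have passed the filter on low counts without its Sens IgG libraries, which had 22, 16 and 10 counts. Outside them only Res RIP libraries 2 and 3 had 2 counts or more, short of the 3 libraries needed.

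**Figure D2:**
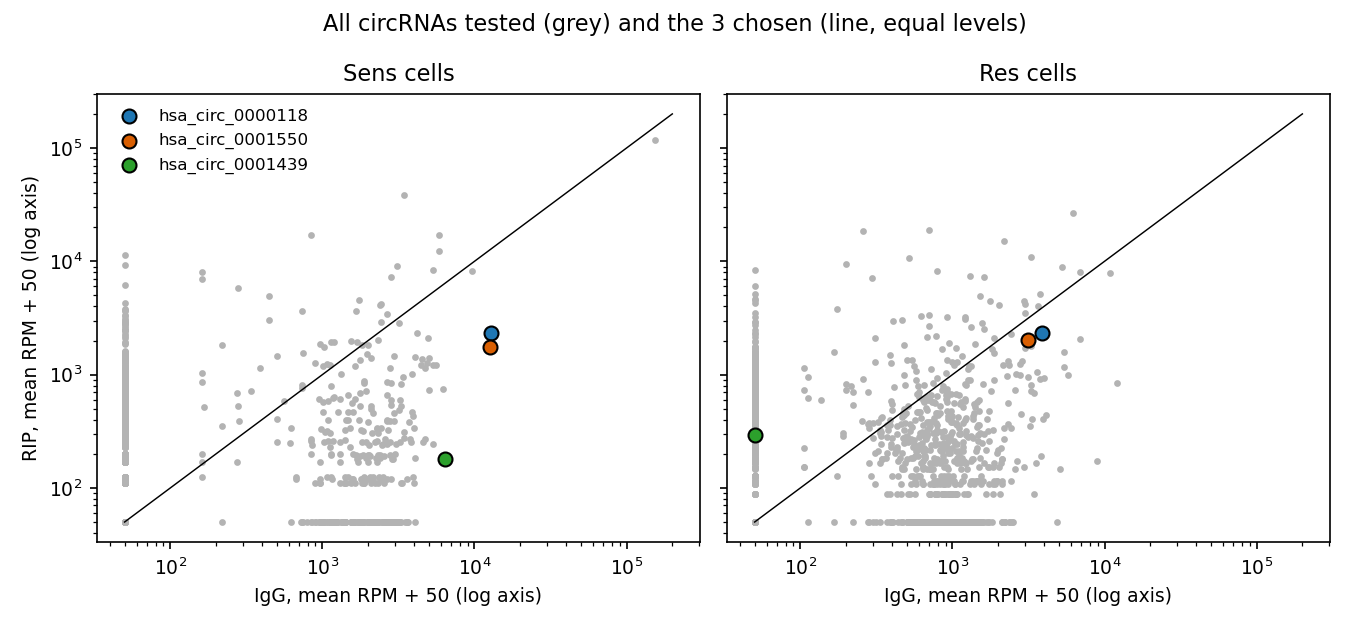
Mean RPM in IgG (horizontal) against mean RPM in RIP (vertical) for the 1307 circRNAs tested, with 50 added to each value so that zeros can be drawn on log axes. The diagonal line marks equal levels. In Sens cells the 3 circRNAs lie toward the right, below the diagonal, with hsa_circ_0001573 further right. In Res cells hsa_circ_0000118 and hsa_circ_0001550 lie near the diagonal and hsa_circ_0001439 is at 0 in IgG.

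In Res cells the gap between antibodies was smaller in RPM for hsa_circ_0000118 and hsa_circ_0001550, though not per ERCC count, as given further on. hsa_circ_0000118 had 16, 24 and 17 counts in Res IgG, or 4145, 4448 and 2816 RPM, and 13, 11 and 17 counts in Res RIP, or 2270, 1270 and 3282 RPM. The means were 3803 ± 868 and 2274 ± 1006, a 1.67-fold lower level in the RIP, and the groups overlapped because RIP library 3 exceeded IgG library 3. hsa_circ_0001550 had 18, 8 and 19 counts in Res IgG, or 4663, 1483 and 3148 RPM, against 9, 23 and 9 counts in Res RIP, or 1572, 2655 and 1738 RPM. The means were 3098 ± 1591 and 1988 ± 584, 1.56-fold lower in the RIP, and all 3 RIP libraries fell within the IgG range. For this circRNA the difference was smaller than the spread between the IgG libraries.

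hsa_circ_0001439 was barely counted in Res cells. It had 0 counts in all 3 Res IgG libraries, which over 15292 circRNA counts allows up to 196 RPM, taking 3 counts as the limit of a 0. Res RIP held 0, 3 and 2 counts, or 0, 346 and 386 RPM, with a mean of 244 ± 212. This puts the RIP 1.24-fold higher than IgG, with 3 counts taken for the 0. The exact 95% interval of the ratio of summed counts reached down to 0.716, so a direction was not detectable at this depth. A group wholly below or above the other was found for none of the 3 in Res on this scale, against 36.3% of the circRNAs tested for a lower and 24.6% for a higher RIP.

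The sign of RIP over IgG depended on the scale. Per 1000 ERCC counts, hsa_circ_0000118 had 0.299, 0.289 and 0.254 in Sens IgG and 17.0, 14.8 and 20.8 in Sens RIP. The RIP mean was 62.4-fold higher, and every RIP library exceeded every IgG library. hsa_circ_0001550 had 0.291, 0.200 and 0.347 in Sens IgG against 11.8, 14.8 and 11.3 in Sens RIP, 45.2-fold higher, again without overlap. hsa_circ_0001439 had 0.164, 0.178 and 0.0771 in Sens IgG against 1.31, 1.48 and 0 in Sens RIP. Its groups overlapped because 1 RIP library was at 0, and the ratio of summed counts per ERCC total was 7.48 with an exact 95% interval of 0.881 to 28.5. Thus 2 of the 3 had wholly higher RIP groups on the spike-in scale, as did 29.5% of the circRNAs tested.

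In Res cells the same scale gave 0.286, 0.309 and 0.186 for hsa_circ_0000118 in IgG and 18.6, 15.6 and 37.9 in RIP, 92.4-fold higher by the means. For hsa_circ_0001550 the IgG values were 0.321, 0.103 and 0.208 and the RIP values 12.9, 32.7 and 20.1, 103.8-fold higher. On this scale the gap between antibodies was thus larger in Res than in Sens for both, the reverse of the order in RPM, and the difference between lines was not tested. Both had wholly higher RIP groups, as did 39.3% of the circRNAs tested. hsa_circ_0001439, at 0 in IgG, had 0, 4.27 and 4.46 in the RIP and was 218-fold higher by its mean, taking 3 counts for the 0. The exact 95% interval of the ratio of summed counts began at 111, and the groups overlapped because 1 RIP library was also at 0.

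**Figure D3:**
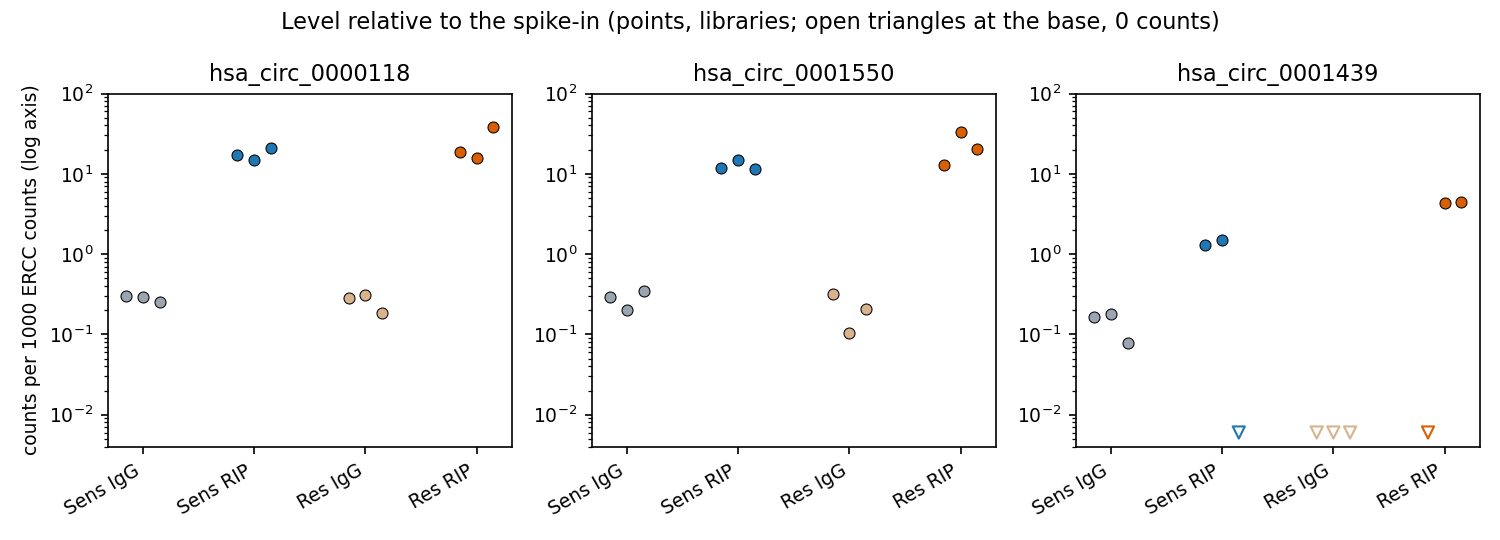
Counts per 1000 ERCC counts (log axis) for the 3 circRNAs in each library. Open triangles at the base stand for 0 counts and have no position on the log axis. The RIP points of hsa_circ_0000118 and hsa_circ_0001550 lie above 11 and their IgG points below 0.35 in both lines.

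A change from circRNA totals to ERCC totals multiplies the ratio of every circRNA in a line by about the same factor, 344 in Sens and 157 in Res, which are the ratios of circRNA counts per ERCC count between RIP and IgG. The reversal of sign was accordingly shared with most circRNAs. Of the 246 tested circRNAs with counts from both antibodies in Sens, 199 (80.9%) were lower in the RIP by RPM and higher by ERCC. In Res it was 440 of 539 (81.6%). None of those 246 or 539 was lower in the RIP on the ERCC scale. The choice all but fixed this, since circRNAs without RIP counts were left out, so nothing is read from it. A single count in Sens RIP library 1 made 1.31 per 1000 ERCC counts, against a mean of 0.281 for hsa_circ_0000118 in Sens IgG. The median log2 ratio over the 246 was -2.50 in RPM and 5.87 per ERCC count. For hsa_circ_0000118 the values were -2.47 and 5.96 and for hsa_circ_0001550 -2.91 and 5.50, both near that median, while hsa_circ_0001439 lay lower at -5.61 and 2.73. The spike-in scale gives circRNA per amount of RNA that entered the library, not the amount precipitated.

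TMM effective library sizes, which are estimated after trimming the circRNAs with the most extreme ratios, gave values between those of the other scales. In Sens the log2 ratio of RIP over IgG was -0.44 for hsa_circ_0000118, -0.89 for hsa_circ_0001550 and -3.53 for hsa_circ_0001439, all with the RIP group wholly below IgG, against 13.9% of the circRNAs tested. In Res it was 0.23 for hsa_circ_0000118 and 0.39 for hsa_circ_0001550, above 0 where the RPM values of -0.74 and -0.64 were below it. The groups of all 3 circRNAs overlapped in Res with TMM, where 29.8% of the circRNAs tested had a wholly lower and 27.2% a wholly higher RIP group.

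**Figure D4:**
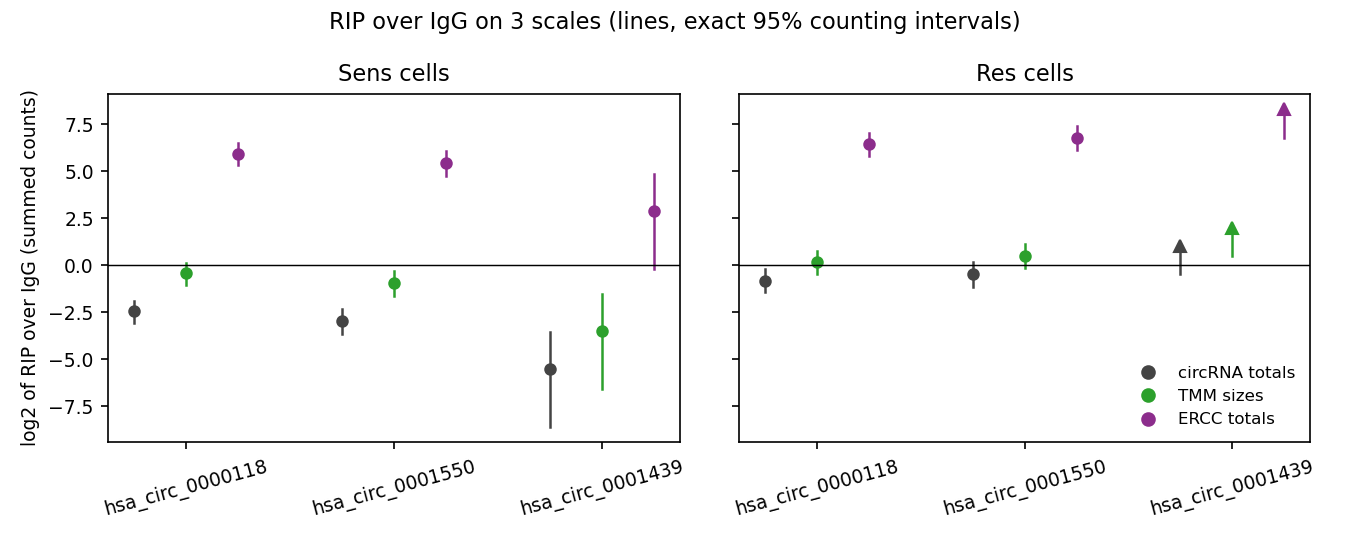
Log2 ratio of RIP over IgG from summed counts for the 3 circRNAs in Sens (left) and Res (right) cells, scaled by circRNA totals, TMM sizes or ERCC totals. Lines are exact 95% counting intervals, and triangles mark intervals without an upper end because Res IgG had 0 counts. With ERCC totals all points lie above 0, and with circRNA totals the points of Sens cells lie below it.

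The IgG background of these circRNAs differed between the lines in share of circRNA counts, with Sens above Res. By mean RPM, hsa_circ_0000118 was 3.35-fold lower in Res IgG than in Sens IgG and hsa_circ_0001550 4.09-fold lower. hsa_circ_0001439 was at least 32.3-fold lower, with 48 counts in Sens IgG and 0 in Res IgG. The 3 Res libraries lay below the 3 Sens libraries for each of the 3 circRNAs, as for 20.4% of the circRNAs tested. The choice of the 3 rests on Sens IgG, so this is a description too.

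Relative to the spike-in, most of that difference was gone for 2 of the 3. hsa_circ_0000118 had 0.281 ± 0.0233 counts per 1000 ERCC counts in Sens IgG and 0.260 ± 0.0650 in Res IgG. The ratio of Res to Sens from summed counts was 0.905, with an exact 95% interval of 0.641 to 1.27, and the groups overlapped. hsa_circ_0001550 had 0.279 ± 0.0740 and 0.211 ± 0.109, also overlapping, with a ratio of 0.693 and an interval of 0.477 to 0.994 for counting error alone. hsa_circ_0001439 remained lower in Res IgG, from 0.140 ± 0.0547 to 0 counts, or 10.5-fold with 3 counts taken for the 0. The exact 95% interval of its ratio of summed counts began at 7.97-fold lower. Thus 1 of the 3 had a wholly lower Res group, against 16.8% of the circRNAs tested. All circRNAs together had 3.10-fold more counts per ERCC count in Res IgG than in Sens IgG, so a circRNA with equal counts per ERCC count in both lines has a lower RPM in Res.

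Absence from Res IgG was common among circRNAs seen in Sens IgG. Of the 369 circRNAs counted in all 3 Sens IgG libraries, 251 (68.0%) had 0 counts in all 3 Res IgG libraries. hsa_circ_0001439 had the highest summed Sens IgG count of the 251, at 48 against a median of 13. It was chosen with its Sens IgG level known, so nothing is read from that place. In the other direction, 769 of the 895 circRNAs counted in all 3 Res IgG libraries (85.9%) had 0 counts in Sens IgG. hsa_circ_0000118 and hsa_circ_0001550, by contrast, were counted in all 12 libraries.

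Between the RIP libraries of the 2 lines the 3 circRNAs differed little against their errors. The choice of the 3 had the RIP levels of both lines in view, so the values are descriptions here too and the counts of calls are no independent test. The IgG libraries helped to set which circRNAs passed the filter. In the fit they enter through its scaling and its estimate of spread. A fit of the 6 RIP libraries alone kept the same 1307 circRNAs. It gave log2 fold changes of -0.16, 0.22 and 0.76 in the order in which the 3 are named above. None of the 3 was among the 31 of 1307 circRNAs (2.37%) called by edgeR's quasi-likelihood test at an adjusted p under 0.05, and nothing is read from that count. The count for the 3 was also 0 at an unadjusted p under 0.05, and 0 with DESeq2 and with limma-voom. hsa_circ_0000118 had a log2 fold change of -0.16 from Sens to Res RIP (SE 0.37, 95% interval -0.88 to 0.56). For hsa_circ_0001550 it was 0.23 (SE 0.39, interval -0.55 to 1.00). Res RIP library 2 had 23 counts where the other 5 RIP libraries had 6 to 10. It was also the deepest of the 12 libraries, with 8662 circRNA counts. For hsa_circ_0001439, with 2 counts in Sens RIP and 5 in Res RIP, it was 0.79 (SE 1.16, interval -1.49 to 3.06). These intervals leave room for a change of up to 1.47-fold upward or to 0.543 of the level for hsa_circ_0000118, and of up to 2.00-fold upward or to 0.684 for hsa_circ_0001550. For hsa_circ_0001439 they reach from 0.355 to 8.37, so a change of several fold would not be detectable at this depth.

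The median log2 fold change of the 3 was 0.23, against 0 over all 1307 circRNAs. That 0 is no typical change, since many tested circRNAs have a fitted change of 0 without a finite error. With a Res IgG library left out, the medians were 0.39 to 0.43 for the 3 and 0.25 to 0.29 for all tested. Nothing is read from these comparisons. Scaling to ERCC totals moved the median of all circRNAs to 0.39 and gave 0.40 for hsa_circ_0000118, 0.80 for hsa_circ_0001550 and 1.43 for hsa_circ_0001439, none of them called. The value of hsa_circ_0000118 lay near that median of all circRNAs, from which nothing is read either.

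The submitters' delta enrichment is RIP minus IgG in RPM, Res minus Sens, and a value below 0 marks a circRNA with decreased association in resistant cells. With circRNA counts as the denominator it was above 0 for all 3, at 8918 (SE 966) for hsa_circ_0000118, 9885 (SE 2169) for hsa_circ_0001550 and 6461 (SE 1441) for hsa_circ_0001439. These SEs come from the spread between libraries. For hsa_circ_0000118 the Sens IgG SD of 997 RPM lay below the counting SD of 2240, so its SE of 966 understates counting error. For hsa_circ_0000118 it is the difference between -10447 RPM in Sens and -1529 RPM in Res, while the RIP means themselves were 2302 and 2274 RPM. For hsa_circ_0001550 the enrichments were -10995 and -1110 RPM, and for hsa_circ_0001439 -6216 and 244 RPM. Most of each delta thus came from the IgG term, where Sens exceeded Res. Per 1000 ERCC counts the deltas were also above 0, at 6.54 (SE 7.21), 9.32 (SE 5.90) and 2.12 (SE 1.53), the first below its SE. There the IgG terms were under 0.3 for each circRNA and the deltas came from the RIP libraries. Enrichment within each line was itself above 0 on that scale, at 17.3 in Sens and 23.8 in Res for hsa_circ_0000118.

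The order of levels thus differed by scale. In RPM, hsa_circ_0000118 was highest in Sens IgG, then in Res IgG, which lay above Sens RIP but overlapped Res RIP, and the RIP groups overlapped each other. Per ERCC count both RIP groups stood above both IgG groups, with neither line separated from the other within an antibody. For hsa_circ_0001550, Sens IgG alone stood apart in RPM, and per ERCC count it too had both RIP groups above both IgG groups. hsa_circ_0001439 had Sens IgG above all other groups in RPM, and per ERCC count its RIP groups overlapped the IgG groups through the libraries at 0.

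Across the 12 libraries the 3 profiles were not equally alike. On log2(TMM CPM + 1), Pearson's r was 0.71 between hsa_circ_0001550 and hsa_circ_0001439, 0.48 between hsa_circ_0000118 and hsa_circ_0001439 and 0.18 between hsa_circ_0000118 and hsa_circ_0001550. Among 306 other circRNAs with at least 30 counts, the profiles most like hsa_circ_0001439 were hsa_circ_0007827 (r = 0.81) and hsa_circ_0023936 (r = 0.80), both also at 0 in Res IgG. hsa_circ_0001355 (r = 0.75) and hsa_circ_0001439 itself were most like hsa_circ_0001550. For hsa_circ_0000118 they were hsa_circ_0000591 (r = 0.69) and hsa_circ_0008839 (r = 0.64), which had 0 counts in Res IgG where hsa_circ_0000118 had 57, so that no close match was found. These values are descriptions over 12 libraries that share depth and scaling, with zeros weighing heavily.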

How the data were processed

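The deposited table holds raw counts for 6384 circRNAs and 57 ERCC transcripts in 12 libraries, whole numbers per the file. Per the labels' protocols, the authors scaled their data to the ERCC spike-in with RUVSeq, a step absent from the deposited counts. The submitters' processing notes list the build GRCh37. How reads were aligned, circRNAs called and reads counted is not given in the sources used here. ERCC rows held 93.5% to 97.9% of the counts of each IgG library and 7.51% to 12.4% of those of each RIP library. They entered neither circRNA totals nor tests.

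Levels are counts per 1000000 circRNA counts (RPM), per 1000 ERCC counts or per TMM effective library size. Res RIP was compared with Sens RIP in edgeR 4.0.16 (R 4.3.3), with TMM, the quasi-likelihood test, all 12 libraries in 1 fit, a minimum of 2 counts in 3 or more libraries and Benjamini-Hochberg adjustment over 1307. The test is two-sided. The prior degrees of freedom were infinite, so the spread was pooled over circRNAs. The fit was first tested on simulated data. DESeq2 1.42.0, limma-voom (limma 3.58.1), other scalings, filters and left-out libraries were alternatives. The named circRNAs are the 3 chosen ones and, for each, the 2 with the highest Pearson r over the libraries among those with at least 30 counts. The circRNAs ranked around the 3 in Sens IgG were added later. The 3 circRNAs and the tests were chosen with earlier results of these data known, the RIP levels included, so the edgeR values of the 3 are given as descriptions although the plan had named that comparison as a test.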

Additional observations from a re-analysis of the deposited data

How the results depend on the processing

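None of the 3 circRNAs was called between the RIP groups under any of the 22 alternatives run, and only hsa_circ_0000118, whose log2 fold change lies near 0, changed sign. It was 0.40 with ERCC totals, 0.13 with DESeq2, 0.043 with no filter and 0.020 with at least 5 counts in 3 libraries. Leaving out each library gave -0.18 to 0.38 for it, 0.090 to 0.72 for hsa_circ_0001550 and 0.51 to 1.56 for hsa_circ_0001439. The number of circRNAs called went from 31 to 58 with ERCC totals, 19 with DESeq2, 53 with limma-voom, 17 with no filter and 17 with the replicate number as a block, and ranged from 16 (without Sens RIP replicate 3) to 32 with a library left out. It was 18 without Sens RIP replicate 2 and 19 without Res RIP replicate 2. The replicate block gave log2 fold changes of -0.15, 0.25 and 0.75 for hsa_circ_0000118, hsa_circ_0001550 and hsa_circ_0001439. Libraries of the 2 lines share only a number in the labels: same-numbered RIP libraries had deviations correlated at -0.032 to 0.115, and 2 of 6 were most like their own number. Between Sens IgG and Sens RIP, same-numbered libraries gave 0.087, 0.089 and 0.143, and other pairs -0.138 to 0.037. In Res the same-numbered IgG and RIP libraries gave 0.041, 0.085 and -0.031. The RIP over IgG ratios did not use the numbers, and whether such libraries are paired was not tested.

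The log2 ratio of RIP over IgG in Sens was 5.96 per ERCC count, 2.89 per all counts of the file and -0.44 with TMM for hsa_circ_0000118, 5.50, 2.44 and -0.89 for hsa_circ_0001550, and 2.73, -0.26 and -3.53 for hsa_circ_0001439. In Res it was 6.53, 3.09 and 0.23 for hsa_circ_0000118 and 6.70, 3.20 and 0.39 for hsa_circ_0001550. These follow from the library totals used, since a scale multiplies all circRNAs of a library alike. hsa_circ_0001439 has no ratio in Res, with IgG at 0. With a library left out the ratio in RPM stayed below 0, at -2.53 to -2.41, -3.10 to -2.72 and -6.14 to -5.03 in Sens and -1.10 to -0.45 and -0.97 to -0.22 in Res.

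The delta was above 0 under each alternative run, but not always beyond its error. It was 6.54 per 1000 ERCC counts (SE 7.21), 70.2 per 1000000 counts of the file (SE 546), 1937 with TMM (SE 1099) and 10918 with circRNA totals without hsa_circ_0001573 (added after seeing the data) for hsa_circ_0000118. The first 3 of these scales gave 9.32 (SE 5.90), 407 (SE 380) and 3273 (SE 1409) for hsa_circ_0001550 and 2.12 (SE 1.53), 248 (SE 131) and 2825 (SE 591) for hsa_circ_0001439. With these errors, ERCC or file totals settle the sign for none of the 3, and for hsa_circ_0000118 the delta was below its SE on both. Leaving out a library gave 8414 to 9493, 8318 to 11635 and 5552 to 7876. Depth limits hsa_circ_0001439 most, with 7 counts over the 6 RIP libraries.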
